A study of Danio rerio with 4 samples.

Results

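The insulin-like growth factor (IGF) axis is described here through 10 zebrafish genes: the binding protein genes *igfbp1a*, *igfbp1b*, *igfbp2a*, *igfbp2b*, *igfbp3* and *igfbp5b*, the ligand genes *igf1*, *igf2a* and *igf2b*, and the receptor gene *igf1ra*. They were chosen by symbol, with their values in the 4 libraries known, so the values below describe the selection and carry no test. All 10 were found among the 27423 rows of the deposited table. Of the 10, 8 had an estimated count of at least 100 in every library, as did 13633 rows in all, and *igfbp1b* and *igf1* did not.

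The study compared pooled whole zebrafish embryos at 48 hours post fertilization (hpf) in 2 mutant lines whose outer skin cells, the periderm, round up. The groups were homozygous *goosepimples* (*gsp*) mutants, which lack Myosin Vb function, their *gsp* siblings, homozygous *romeharsha* (*rhs*) mutants, whose affected gene the study gave as unknown, and their *rhs* siblings. Siblings of each line pooled heterozygotes and homozygous wild types, so they are not a pure wild type group, and nothing was given as treatment to any embryo. Both crosses were between heterozygous parents, the embryos were sorted by phenotype at 43 hpf, and 1 library was sequenced per condition, so no difference below has a replicate check.

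The 4 libraries summed to between 106188690 and 118680429 estimated counts. *myo5b*, the gene mutated in *gsp*, stood at the floor of 1 in both *gsp* libraries and at 193 in the *rhs* mutant against 87.8 in its sibling, so the *gsp* labels could not be checked with it. A second row on that chromosome, LOC100536519, which the table describes as myosin-Vb-like, had 1851 in the *gsp* mutant against 1946 in its sibling, and 3351 in the *rhs* mutant against 2246 in its sibling, and so does not set the *gsp* libraries apart either. No member lies on chromosome 21 with *myo5b*. The median log2 ratio of mutant to sibling over all 13633 rows was −0.11 in *gsp* and −0.20 in *rhs*, and ratios below are unscaled unless stated. A ratio is called past the limit where its log2 value is beyond 0.57 in either direction, a fold just under 1.5 that the study also used.

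IGF ligands are secreted growth factors that signal through the IGF1 receptor to the PI3K, Akt and mTOR kinases, which promote growth and survival. IGF binding proteins (IGFBPs) hold the ligands outside the cell and in most settings limit their access to the receptor. IGFBP1 is the member best known as a stress signal: in mammals the liver secretes it, insulin represses it, and fasting and low oxygen raise it. In zebrafish embryos, low oxygen induces *igfbp1a*, and forced expression of Igfbp1 slows growth and development. Several of the genes exist as a pair of duplicates (a and b) in zebrafish, and reads shared between duplicates could have been split between them by the counting.

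*igfbp1a* had an estimated count of 18545 in the *gsp* mutant against 1665 in the *gsp* sibling. It had 21366 in the *rhs* mutant against 2138 in the *rhs* sibling. Both mutants were therefore far above both siblings, and the siblings differed from each other by a ratio of only 0.779 (*gsp* over *rhs*). The ratio of mutant to sibling was 11.1 in *gsp* (95% counting interval 10.6 to 11.7) and 9.995 in *rhs* (9.56 to 10.5). These exact intervals cover counting error only, and not the spread between pools of embryos. Because the RNA came from whole embryos, more cells that express a gene and more RNA per cell cannot be told apart, here and for every gene below. Its ratio ranked 14 from the highest of the 13633 rows in *gsp* and 19 in *rhs*. The gene (Ensembl ENSDARG00000014947) lies on the plus strand of danRer7 chromosome 20, from 7029615 to 7033442. No span of another row overlaps it or any other member.

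The duplicate *igfbp1b*, on chromosome 2 from 167259 to 170764, was sparse. It had estimated counts of 132 in the *gsp* mutant against 47.1 in the *gsp* sibling, and of 421 in the *rhs* mutant against 195 in the *rhs* sibling. Each mutant was above its own sibling, by 2.81-fold in *gsp* (1.999 to 4.01) and 2.16-fold in *rhs* (1.82 to 2.57). The *gsp* mutant, however, was below the *rhs* sibling, and the siblings themselves stood at a ratio of 0.241, so the siblings differed more from each other than either mutant did from its own sibling. With the *rhs* sibling as control the *gsp* ratio was 0.677. The sum of both duplicates was 10.9-fold higher in the *gsp* mutant than in its sibling and 9.34-fold higher in *rhs*, and *igfbp1a* made up at least 91.6% of that sum in each library.

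**Figure D1:**
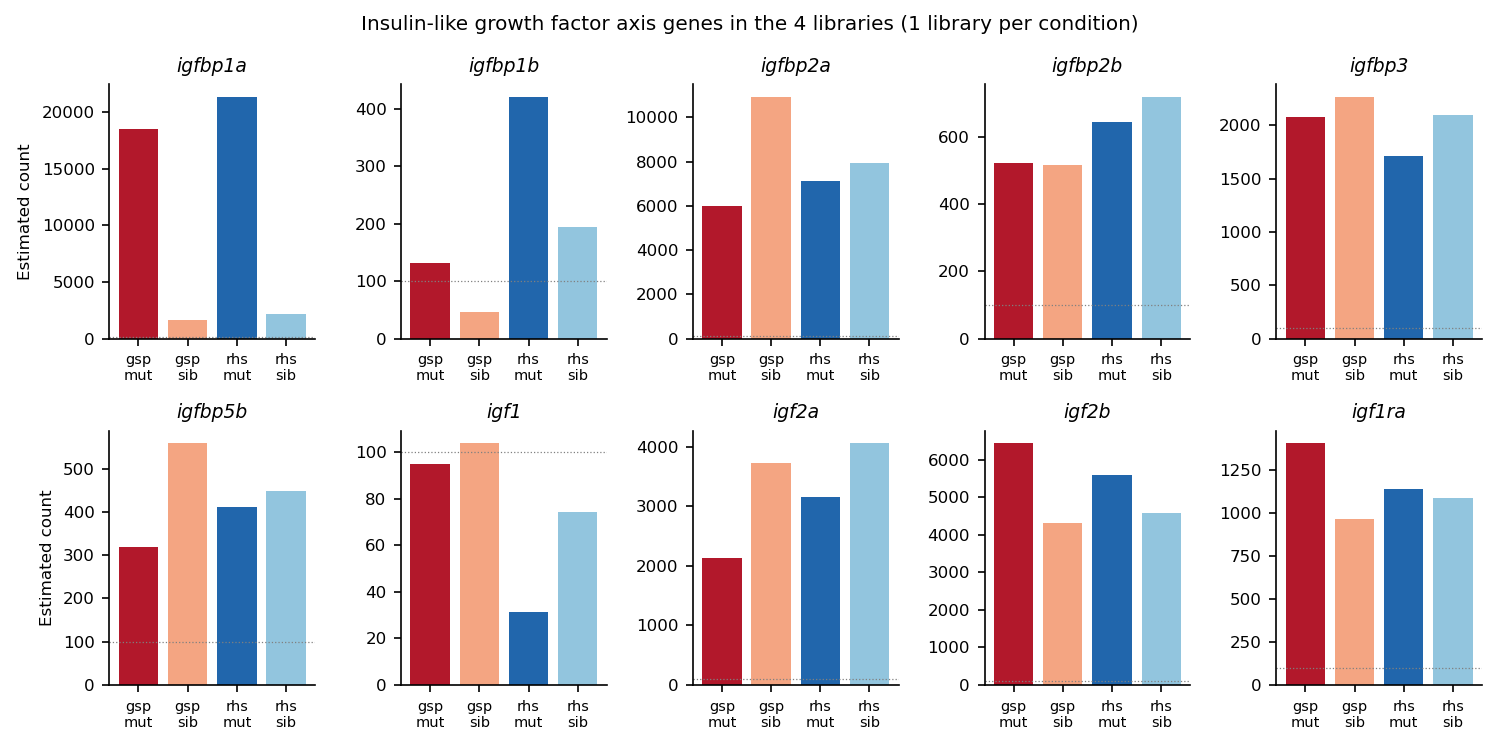
Estimated count (vertical axes, each panel from 0) of the 10 genes in the 4 libraries, with mutants left of siblings and 1 bar per library, so there are no error bars. The dotted line marks 100. *igfbp1a* stood at 18545 and 21366 in the mutants and at 1665 and 2138 in the siblings, while *igf2a* was lowest and *igf2b* highest in the *gsp* mutant.

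IGFBP2 is a binding protein expressed widely in embryos, and zebrafish *igfbp2a* was lower in the *gsp* mutant. It had an estimated count of 5984 in the *gsp* mutant against 10941 in the *gsp* sibling, and 7125 in the *rhs* mutant against 7919 in the *rhs* sibling. The *gsp* mutant was the lowest of the 4 libraries and the *gsp* sibling the highest. The ratio was 0.547 in *gsp* (0.530 to 0.564) and 0.900 in *rhs* (0.871 to 0.929). Centred on the median of all rows, the ratios were 0.590 in *gsp* and 1.03 in *rhs*. The unscaled *gsp* ratio was 0.608 times that of *rhs*, with a counting interval of 0.581 to 0.636. Part of the *gsp* difference depends on its control, since the *gsp* sibling was 1.38-fold above the *rhs* sibling, and with the *rhs* sibling as control the *gsp* ratio was 0.756, inside the limit. *igfbp2a* lies on the minus strand of chromosome 6 from 22605878 to 22636510.

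*igfbp5b*, on the plus strand of chromosome 6 from 22594883 to 22603027, encodes a binding protein of the IGFBP5 type, which in mammals also binds extracellular matrix and bone mineral. It had estimated counts of 318 in the *gsp* mutant against 559 in the *gsp* sibling, and of 412 in the *rhs* mutant against 449 in the *rhs* sibling. As for *igfbp2a*, the *gsp* mutant was the lowest library and the *gsp* sibling the highest. The ratio was 0.569 in *gsp* (0.494 to 0.654) and 0.917 in *rhs* (0.801 to 1.05), and the *gsp* ratio was 0.620 times that of *rhs* (0.512 to 0.752). With the *rhs* sibling as control the *gsp* ratio was 0.708, again inside the limit.

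The remaining binding protein genes differed little between mutants and siblings. *igfbp2b* (chromosome 9, 47794282 to 47848554) had 521 in the *gsp* mutant and 516 in its sibling, and 644 in the *rhs* mutant and 719 in its sibling, so it differed more between the lines than within either. Its ratios were 1.01 (0.892 to 1.14) in *gsp* and 0.896 (0.804 to 0.998) in *rhs*. Centred on the median of all rows, they were 1.09 in *gsp* and 1.03 in *rhs*. *igfbp3* encodes the type that carries most circulating IGF in adult mammals. It had 2079 in the *gsp* mutant and 2268 in its sibling, and 1716 in the *rhs* mutant and 2095 in its sibling, with ratios of 0.917 (0.863 to 0.973) and 0.819 (0.768 to 0.873). Both ratios were within 0.1 log2 units of the median row, and neither passed the limit.

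Among the ligands, the duplicates of *igf2*, which encodes the main fetal growth factor of the family in mammals, went opposite ways. *igf2a* (chromosome 7, 50327488 to 50333468) had an estimated count of 2132 in the *gsp* mutant against 3722 in the *gsp* sibling, and of 3148 in the *rhs* mutant against 4059 in the *rhs* sibling. *igf2b* (chromosome 25, 24762706 to 24770209) had 6443 in the *gsp* mutant against 4323 in the *gsp* sibling, and 5598 in the *rhs* mutant against 4595 in the *rhs* sibling. In both lines the mutant was thus below both siblings for *igf2a* and above both siblings for *igf2b*. The ratio of *igf2a* was 0.573 in *gsp* (0.543 to 0.604) and 0.776 in *rhs* (0.740 to 0.813). That of *igf2b* was 1.49 in *gsp* (1.43 to 1.55) and 1.22 in *rhs* (1.17 to 1.27), so only the *gsp* values passed the limit.

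The 2 differences nearly cancelled in the unscaled sum. Together the duplicates had 8575 in the *gsp* mutant and 8044 in its sibling, and 8746 in the *rhs* mutant and 8653 in its sibling. The ratio of the sums was 1.07 in *gsp* (1.03 to 1.099) and 1.01 in *rhs* (0.981 to 1.04). Both lay above the median row, whose log2 ratio was −0.11 in *gsp* and −0.20 in *rhs*. *igf2a* made up 24.9% of the estimated counts of the pair in the *gsp* mutant and 46.3% in its sibling, and 36.0% in the *rhs* mutant and 46.9% in its sibling. These are shares of counts and not of molecules, because the transcripts may differ in length.

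*igf1*, the ligand that growth hormone induces in the liver, was sparse at this stage. It had 94.8 in the *gsp* mutant against 104 in the *gsp* sibling, and 31.3 in the *rhs* mutant against 74.4 in the *rhs* sibling. The *rhs* mutant was the lowest of the 4, and the other libraries lay between 74.4 and 104. The ratio was 0.912 in *gsp* (0.684 to 1.22) and 0.421 in *rhs* (0.266 to 0.645), on counts below 100 in 3 of the 4 libraries. Liver is a main source of IGF1 in adults. Of the liver markers, 10 of 14 had at least 100 in every library, and their median log2 ratio was 0.02 in *gsp* and 0.54 in *rhs*, where *igf1* was lowest in the mutant. The sparse ones were mixed in *rhs*. *fabp10a* had 8.75 in the *rhs* mutant against 59.9 in its sibling, and *hpx* 26.2 against 40.6. Higher in the *rhs* mutant were *ttr*, at 27.6 against 7.48, and *ahsg2*, at 18 against 4. In *gsp*, *fabp10a* had 156 in the mutant against 252 in its sibling, and the other ratios were 0.318 (*hpx*), 1.34 (*ttr*) and 2 (*ahsg2*). The part of the liver markers in the *igf1* values was not tested. *igf1* lies on chromosome 4 from 16378371 to 16395196.

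*igf1ra*, on chromosome 18 from 20663405 to 20827504, encodes one of the 2 zebrafish IGF1 receptors, the tyrosine kinase through which both kinds of ligand signal. It had an estimated count of 1406 in the *gsp* mutant against 963 in the *gsp* sibling, and 1142 in the *rhs* mutant against 1085 in the *rhs* sibling. The *gsp* mutant was the highest library, and the other 3 lay between 963 and 1142. The ratio was 1.46 in *gsp* (1.34 to 1.59) and 1.05 in *rhs* (0.968 to 1.14). The *gsp* value, 0.55 on the log2 scale, lay just short of the limit and that of *igf2b*, 0.58, just past it. After scaling to the library median, by TMM or by totals *igf1ra* was past the limit as well.

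**Figure D2:**
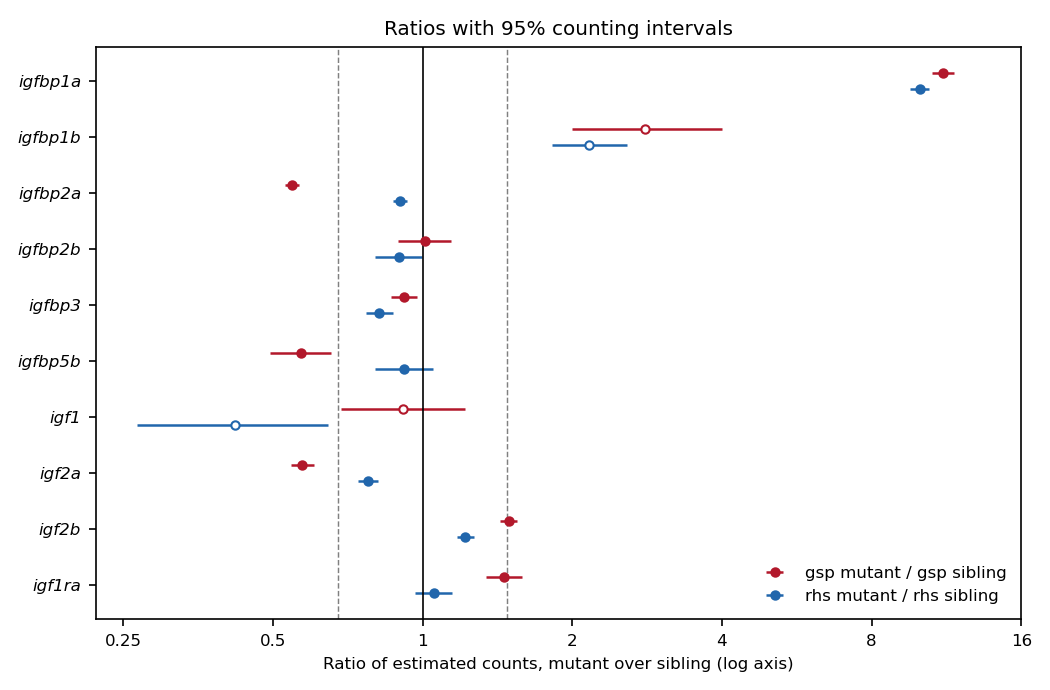
Ratio of the estimated counts, mutant over sibling (horizontal log axis), of each gene in *gsp* (red) and *rhs* (blue), with 95% counting intervals as bars and open points where a library was below 100. Dashed lines mark the limit in each direction. *igfbp1a* lay near 10 in both lines, while *igfbp2a*, *igfbp5b* and *igf2a* lay below the lower line in *gsp* only.

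Of the 8 genes with at least 100 in every library, 2 were past the limit higher in the *gsp* mutant (*igfbp1a* and *igf2b*) and 3 past it lower (*igfbp2a*, *igfbp5b* and *igf2a*). Over all rows, 5.07% were past the limit higher in *gsp* and 4.83% lower. In the *rhs* mutant 1 was higher (*igfbp1a*) and 0 lower, beside 6.45% and 12.6% of all rows, and the other 7 ratios lay between 0.776 and 1.22. *igfbp1a* was the single one of the 8 past the limit higher in both lines, as were 3.52% of all rows, and 0 of the 8 were lower in both, as were 0.976%. Between the siblings, *gsp* over *rhs*, 0 of the 8 were past the limit, with ratios of 0.718 to 1.38, beside 8.9% of all rows higher and 9.58% lower. Since the genes were picked with these values known, nothing is read from the counts. The median log2 ratio of the 8 was −0.06 in *gsp* and −0.14 in *rhs*, close to the medians of all rows.

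**Figure D3:**
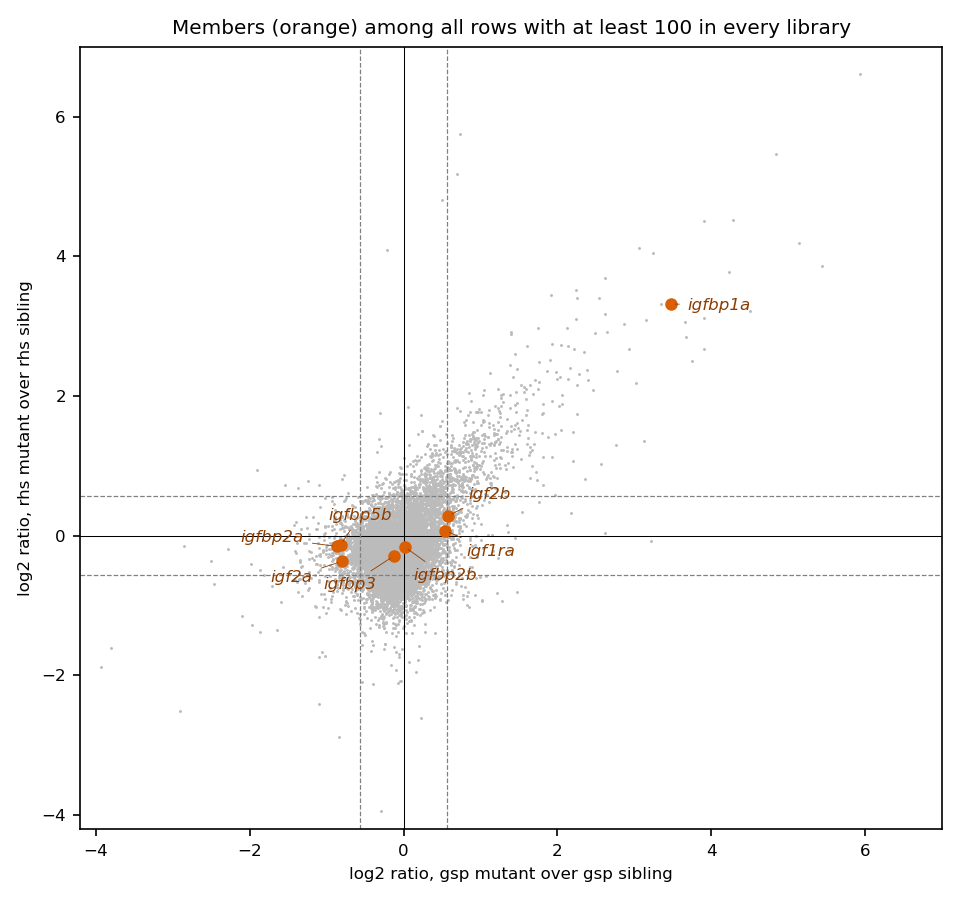
log2 ratio of mutant to sibling in *gsp* (horizontal) and *rhs* (vertical) of all 13633 rows with at least 100 in every library (grey) and of the 8 genes among them (orange). Dashed lines mark the limit. *igfbp1a* sits in the upper right, at 3.48 and 3.32, and the other 7 lie much nearer the origin. Of these, *igfbp2a*, *igfbp5b* and *igf2a* lie toward the left edge of the cloud, ranking 169, 216 and 225 from the lowest in *gsp*.

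The 5 named genes whose 4 log2 values, each centred on the row mean, lay nearest those of *igfbp1a* were *atf3*, *cebpb*, *socs3a*, *ptgs2b* and *egr1*. The first, *atf3*, encodes a stress-induced transcription factor. It had 8947 in the *gsp* mutant and 1006 in its sibling, and 10777 in the *rhs* mutant and 1262 in its sibling, at a Euclidean distance of 0.28 log2 units. *cebpb*, a transcription factor of the acute phase response and of fat cell formation, lay at 0.34, with 43058 in the *gsp* mutant and 4236 in its sibling, and 41216 in the *rhs* mutant and 4149 in its sibling. The others were *socs3a* (distance 0.49), an inhibitor of cytokine signalling, *ptgs2b* (0.55), a cyclooxygenase, and *egr1* (0.56), an immediate early gene. For *igf2b* the nearest were *ahcyl1* (0.03), *fep15*, *asap3*, *cltca*, the clathrin heavy chain, and *traf4a* (0.08). Ratios in *gsp* and *rhs* were 12.7 and 8.35 for *socs3a*, 9.47 and 16.5 for *ptgs2b*, and 14.9 and 6.41 for *egr1*. Since *igfbp1a* itself ranked 14 in *gsp* and 19 in *rhs* from the highest, few rows could lie near it. With 4 libraries many rows share a pattern of small differences like that of *igf2b*. Both sets of names therefore describe likeness only.

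The other genes of the pathway were taken from a list of 79 IGF, insulin and growth hormone genes. Of these, 73 were found and 55 had at least 100 in every library. The list was chosen with earlier results of these data known, so its counts describe the selection and carry no test. In the *gsp* mutant 8 of the 55 were past the limit higher and 1 lower, and in the *rhs* mutant 7 were higher and 8 lower. The shares of all rows were 5.07% higher and 4.83% lower in *gsp*, and 6.45% higher and 12.6% lower in *rhs*, so the lower count in *rhs* was near that of all rows. The median log2 ratio of the list was 0.06 in *gsp* and −0.14 in *rhs*, beside −0.11 and −0.20 for all rows. When ratios were centred on the median row, *gsp* had 11 higher and 1 lower and *rhs* had 9 higher and 2 lower, so most of the lower calls in *rhs* depended on the scaling. The shares of all rows above are of unscaled ratios, and those after centring are not given here. Nothing is therefore read from the centred counts as a number of list genes. Between the siblings, *gsp* over *rhs*, 5 were past the limit in each direction. That is near the shares of all rows, 8.9% higher and 9.58% lower.

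Receptors and their adaptors gave 3 of 10 genes past the limit higher in both mutants and 0 lower, beside 3.52% and 0.976% of all rows. Since the list was chosen with earlier results known, nothing is read from this count. *igf2r*, whose mammalian counterpart takes up IGF2 for breakdown in lysosomes, had 1073 in the *gsp* mutant and 579 in its sibling, and 882 in the *rhs* mutant and 555 in its sibling. Its ratios were 1.85 (1.67 to 2.05) and 1.59 (1.43 to 1.77). *irs2a*, an adaptor below the insulin and IGF1 receptors that the table lists as zgc:56306, had 2135 in the *gsp* mutant and 1077 in its sibling, and 1845 in the *rhs* mutant and 837 in its sibling. Its ratios were 1.98 (1.84 to 2.14) and 2.20 (2.03 to 2.39). For both genes the 2 mutants were above the 2 siblings. The third, the adaptor *irs4b* (listed as LOC794462), had 1250 in the *gsp* mutant and 744 in its sibling, and 262 in the *rhs* mutant and 169 in its sibling, so the lines stood 4.41-fold apart in the siblings. The duplicate receptor *igf1rb* gave ratios of 1.43 in *gsp* and 1.13 in *rhs*, near those of *igf1ra*, and the insulin receptors gave 1.24 and 0.769 (*insra*) and 1.32 and 0.998 (*insrb*).

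Of 7 further binding proteins, stanniocalcins and proteases, 1 was past the limit higher and 1 lower in each mutant, and none in the same direction in both. Over all rows, 5.07% were higher and 4.83% lower in *gsp*, and 6.45% higher and 12.6% lower in *rhs*. In both lines 3.52% of all rows were higher and 0.976% lower. Nothing is read from counts of so few genes. *igfbp6b*, of a type that prefers IGF2 in mammals, had 289 in the *gsp* mutant and 199 in its sibling, and 385 in the *rhs* mutant and 192 in its sibling. It was 2.01-fold higher in *rhs* (1.68 to 2.397) and 1.45-fold in *gsp* (1.21 to 1.75), just short of the limit. *stc1l* encodes a stanniocalcin, a hormone family that limits calcium uptake in fish. It had 1270 in the *gsp* mutant and 524 in its sibling, and 349 in the *rhs* mutant and 665 in its sibling, so the mutants lay on opposite sides of the siblings. *htra1a*, of a serine protease family that can cleave binding proteins, had 1564 in the *gsp* mutant and 2571 in its sibling (0.608), and 1452 in the *rhs* mutant and 1898 in its sibling (0.765). *igfbp5a*, the duplicate of *igfbp5b* that marks calcium-transporting skin cells in zebrafish, gave 0.843 in *gsp* and 0.736 in *rhs*, and those of *igfbp7* were 0.713 and 0.943.

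Of 23 genes of the intracellular pathway, 1 was past the limit higher in each mutant, and it was *rps6kb1a* in both, a share no higher than the 5.07% of all rows in *gsp* and 6.45% in *rhs*. This S6 kinase gene (listed as LOC562242) acts below mTOR and had 7002 in the *gsp* mutant and 4096 in its sibling, and 6683 in the *rhs* mutant and 4127 in its sibling, or 1.71-fold (1.64 to 1.78) and 1.62-fold (1.56 to 1.68) higher. Lower in the *rhs* mutant, where 12.6% of all rows were, stood 5 genes: *akt3b* (ratio 0.564), a kinase of the pathway, *tsc1b* (0.597), *ptena* (0.642) and *ptenb* (0.641), which restrain it, and *pik3r3b* (0.669), a PI3K subunit. Their *gsp* ratios were 0.903, 0.843, 0.806, 0.879 and 0.804 in that order. After centring on the median row *akt3b* was the only one of these 5 still past the limit. None of the 4 genes of the igf2 mRNA binding proteins was past the limit in either mutant, and neither was insulin, *ins*, at 0.904 in *gsp* and 0.918 in *rhs*.

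FoxO factors are kept out of the nucleus by Akt, and glucose-producing enzymes are among their targets in mammals. Of 9 genes in this group, 3 were past the limit higher in *gsp*, and 2 higher and 2 lower in *rhs*. Over all rows, 5.07% were higher in *gsp*, and 6.45% were higher and 12.6% lower in *rhs*. Nothing is read from these counts, as the list was chosen with earlier results known. *pck1*, an early enzyme of glucose synthesis that insulin represses in mammals, had the widest difference of the list. It had 12970 in the *gsp* mutant and 2106 in its sibling, and 15714 in the *rhs* mutant and 1219 in its sibling, or 6.16-fold (5.88 to 6.45) and 12.9-fold (12.2 to 13.7) higher. The siblings stood at a ratio of 1.73 (*gsp* over *rhs*), itself past the limit, and the mutants at 0.825. *g6pca*, which releases free glucose in the last step, had 913 in the *gsp* mutant and 484 in its sibling, and 979 in the *rhs* mutant and 370 in its sibling. Its ratios were 1.89 (1.69 to 2.11) and 2.64 (2.35 to 2.99). Of the factors themselves, *foxo1a* was higher in *gsp* with 482 in the mutant and 261 in its sibling, and had 280 in the *rhs* mutant and 265 in its sibling, and *foxo3a* (0.612) and *foxo6b* (0.632) were lower in *rhs*. Their *gsp* ratios were 0.968 (*foxo3a*) and 1.04 (*foxo6b*), and neither was past the limit in *rhs* after centring on the median row.

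**Figure D4:**
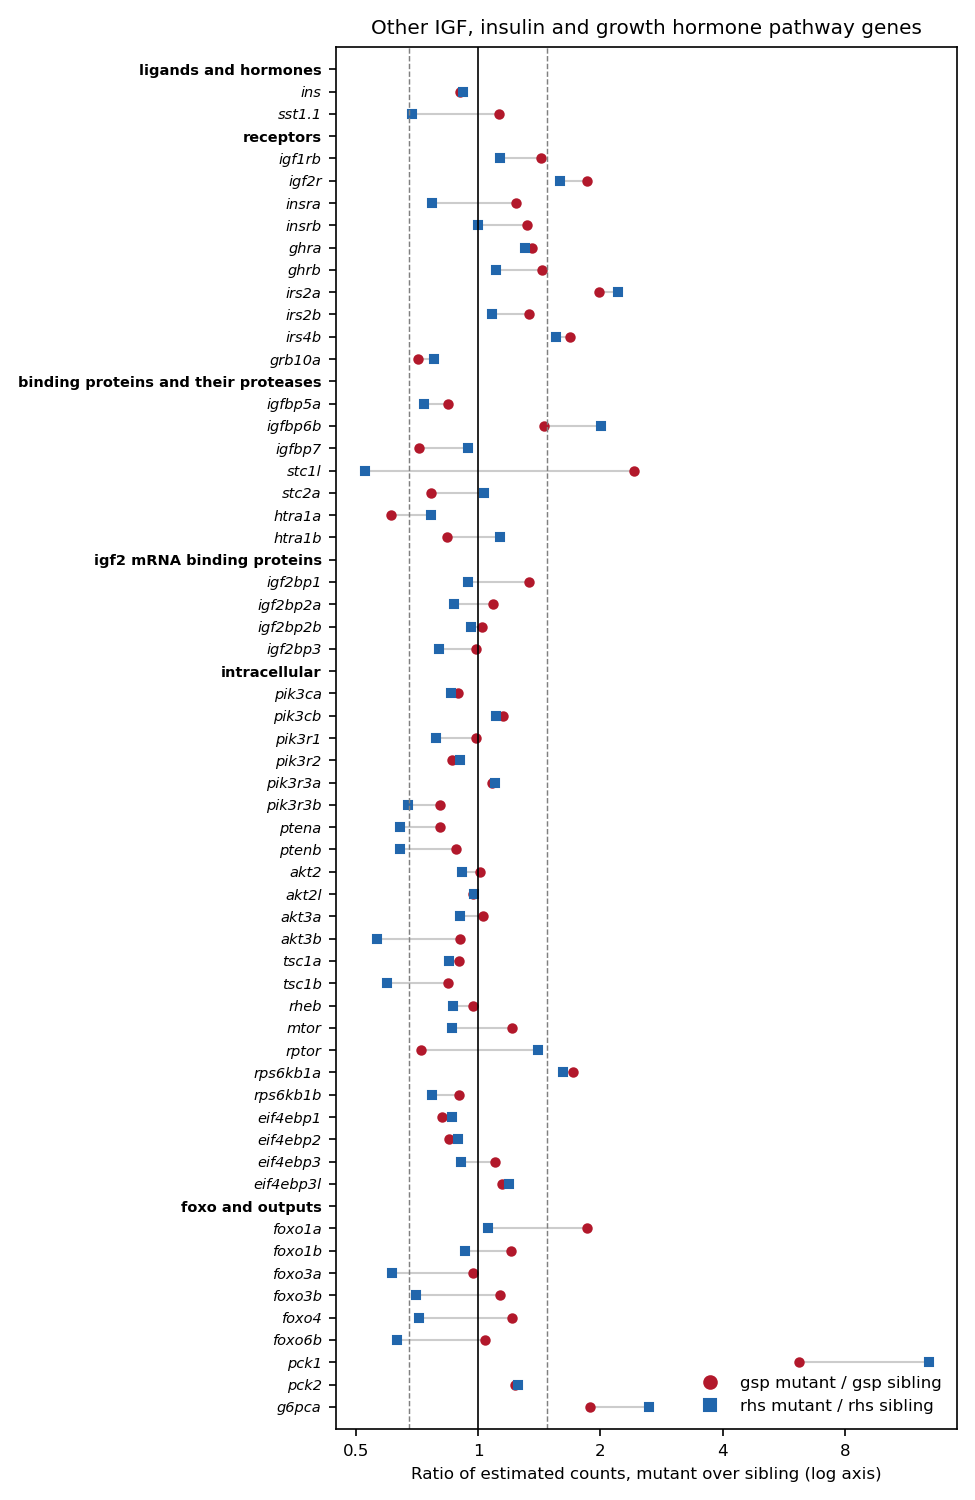
Ratio of the estimated counts, mutant over sibling (horizontal log axis), in *gsp* (red circles) and *rhs* (blue squares) for the 55 other pathway genes with at least 100 in every library, grouped by role. Dashed lines mark the limit. *pck1* lay at 6.16 and 12.9, and *stc1l* is the gene with the circle and the square past opposite lines.

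Marker genes of several tissues were set beside these values. They were chosen with earlier results of these data known, so nothing is read from their counts. The shares of all rows past the limit were 5.07% higher and 4.83% lower in *gsp*, and 6.45% higher and 12.6% lower in *rhs*. Of 10 measured liver markers, 0 were past the limit in the *gsp* mutant and 3 were higher in the *rhs* mutant (the fibrinogen genes *fga*, *fgb* and *fgg*, at 1.60, 1.95 and 1.57), with the medians given beside *igf1*. All 14 listed liver markers together summed to 1374640 in the *gsp* mutant and 1705480 in its sibling, and to 2084800 in the *rhs* mutant and 1539620 in its sibling, and none was at the floor in all libraries. Most of each sum came from *apoa1b* and *apoa2*, so the sums say little about the other liver markers. The *gsp* ratios of *apoa1b* and *apoa2* were 0.796 and 0.773, while the median log2 ratio of the 10 measured markers was 0.02. Of 9 skeletal muscle markers, 3 were higher in *gsp* and 4 lower in *rhs*, with medians of 0.36 and −0.49. Of 8 skin ionocyte markers, 0 were past the limit in *gsp* and 3 were higher in *rhs*, and of 8 epidermal markers 3 were higher and 2 lower in *gsp* and 5 higher in *rhs*. Of 5 markers of the central nervous system, none was past the limit in *gsp*, while in *rhs* 2 were lower. Of the 4 lens markers, 3 were lower in *gsp* and 3 lower in *rhs*, and 2 were lower in both, beside 0.976% of all rows. The lens medians were −0.94 in *gsp* and −0.68 in *rhs*. These medians were all smaller than the log2 ratios of *igfbp1a*, 3.48 and 3.32. In *rhs* the medians of ionocytes, epidermis and the central nervous system were 0.50, 0.63 and −0.42. Unscaled, every tissue median in *rhs* was larger in size than the log2 ratio of each of the other 7 measured members. The most extreme of those ratios was −0.37 (*igf2a*). In *gsp* the ionocyte, epidermal and central nervous system medians were 0.03, 0.19 and −0.03. Only the lens median there, −0.94, was larger in size than the most extreme of the 7, −0.87 (*igfbp2a*). The median row in *rhs* stood at −0.20, and after centring on it the *rhs* ratio of *igf2b* was 1.40. Tissue medians after centring are not given here, so these orders are stated for unscaled values only. The part of the tissues in the ratios above was not tested.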

How the data were processed

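Whole embryos at 48 hpf were pooled by phenotype, 20 per group according to the labels (the study's methods give a larger number), and sequenced as 4 libraries. The authors trimmed reads, aligned them with TopHat to danRer7 and used DEGseq to give each transcript a value. These deposited values, described in the methods as RPKM, were read here as estimated counts with a floor of 1: they sum to at least 106188690 per library, and 28.9% to 31.6% of the values between 1 and 20 were multiples of 1/101 within 0.01 of a step, where evenly spread values would give 2%. A ratio within a row has the same value under either reading, but read as counts it also carries the difference between the library totals. The counting intervals need the reading as counts. The authors also deposited normalized log2 columns, centred on each row, which were used as an alternative. Tables of the authors' own fold changes were not used.

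The members and all gene lists were chosen with earlier results of these data known. For each row, mutant was divided by sibling, with a minimum of 100 in every library and a limit of 0.57 log2 units, and no p-value or SE was computed because a condition has 1 library. Intervals of a ratio of mutant to sibling are exact Clopper-Pearson intervals at 95% on rounded counts (scipy 1.17.1). Those of the *gsp* ratio over the *rhs* ratio are 95% intervals from a normal approximation on the log scale. Both kinds cover counting error only. The named genes are the 10 members, list genes past the limit in either mutant, and the 5 rows nearest *igfbp1a* and *igf2b*; genes short of the limit and those outside these rules were named after their values were seen. Of the 79 list genes, 19 were matched by Entrez identifier with the reference table of gene names (assembly GRCz12tu), which was used for names only. Alternatives were median centring, TMM (edgeR 4.0.16), library totals, pseudocounts, other minimums, limits and control siblings. The code was tested on simulated data. Protein and promoter sequences were not analysed here.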

Additional observations from a re-analysis of the deposited data

Results flagged for a closer look

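*stc1l*, a stanniocalcin gene, moved in opposite directions in the 2 mutants. It was 2.42-fold higher in the *gsp* mutant than in its sibling (95% counting interval 2.19 to 2.69), and stood at a ratio of 0.525 in the *rhs* mutant (0.460 to 0.598). With 1 library per condition the difference between the lines was not tested. Among the members and list genes with at least 100 in every library, it was the only one past the limit in opposite directions. The skeletal muscle marker *mybpc2b* was as well, at 1.98 in *gsp* and 0.665 in *rhs*. Its siblings stood at a ratio of 0.503 (*gsp* over *rhs*).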

How the results depend on the processing

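No value has a replicate, so no library could be left out in turn. No paired analysis was possible because each condition has 1 library. Of the 10 members, *igfbp1a* was past the limit higher under each of 8 scalings, pseudocounts and controls in both lines, with *gsp* ratios of 8.68 to 12.2 and *rhs* ratios of 9.59 to 12.8. *igf2a* was past it lower in *gsp* under each, at 0.525 to 0.625. *igfbp2a* and *igfbp5b* were past it in *gsp* under 7 of the 8, *igf2b* under 5 (1.40 to 1.63) and *igf1ra* under 3 (1.30 to 1.59). The 5 members past the limit in *gsp* became 2 with the other line's sibling as control and 1 with a limit of 2-fold. The 1 member past it in *rhs* became 2 with the other line's sibling, where *igfbp2a* stood at 0.651, and 3 with a minimum of 10 and with no minimum, where *igfbp1b* and *igf1* enter. The other 25 alternatives for these counts and for the wider list stayed within 1.5 times, although the lower calls of the list in *rhs*, 8 unscaled, were 2 after median centring and 3 after TMM. The shares of all rows under these alternatives are not given here, so nothing is read from how the counts changed. Estimated counts under 100 limit *igfbp1b* and *igf1*, and the planned search of proteins and promoters was not run.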

Other observations

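Of the endocrine genes above *igf1*, *gh1* and *ghrh* were below 100 in both *rhs* libraries, and *ghrh* in both *gsp* libraries as well. *gh1*, growth hormone, had an estimated count of 280 in the *gsp* mutant and 358 in its sibling, and 17.3 in the *rhs* mutant and 64.2 in its sibling. *ghrh*, its hypothalamic releasing hormone, had 29.4 in the *gsp* mutant and 69.1 in its sibling, and 1.88 in the *rhs* mutant and 4.91 in its sibling. So near the floor, its *rhs* ratio of 0.384 had a counting interval of 0.0381 to 2.44, on both sides of 1. Both *rhs* libraries, sibling included, were thus below both *gsp* libraries for both genes. In each line the mutant value was below that of its sibling, for *ghrh* in *rhs* within counting error. The growth hormone receptors *ghra* and *ghrb* did not share this order, at ratios of 1.35 and 1.44 in *gsp* and 1.31 and 1.11 in *rhs*. Nor did *sst1.1*, listed with *gh1* and *ghrh*. It had 769 in the *gsp* mutant and 685 in its sibling, and 484 in the *rhs* mutant and 706 in its sibling.

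Neighbouring members were looked at after their values were seen. *igfbp1a* and *igfbp3* face each other on chromosome 20 with 4536 bp between them and no other row of the table in that gap, yet *igfbp3* stood at 0.917 in *gsp* and 0.819 in *rhs*, where *igfbp1a* stood at 11.1 and 9.995. *igfbp5b* and *igfbp2a* face each other on chromosome 6 across 2850 bp, and stood at 0.569 and 0.547 in *gsp* and at 0.917 and 0.900 in *rhs*. The next row with at least 100 in every library beyond *igfbp2a*, *stk11ip*, stood at 1.29 in *gsp* and 1.07 in *rhs*. On the other side, beyond *igfbp5b*, LOC100334831 stood at 0.736 in *gsp* and 0.787 in *rhs*, so the flanks were mixed.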
